A study of Mus musculus with 2 samples.

Results

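The nuclear-encoded genes of oxidative phosphorylation (OXPHOS) were taken by name from the single-cell counts of naive and bleomycin-injured mouse lung. Every gene column of either table whose symbol starts with Nduf followed by a, b, c, s or v, with Uqcr, with Atp5 or with Cox4 to Cox8, or that is Sdha, Sdhb, Sdhc or Sdhd, was a member, and pseudogene columns were left out. The rule found 92 of the 24785 genes listed in at least 1 table. By their names, 36 members were subunits of complex I and 8 were its assembly factors (the Ndufaf genes, which the name pattern takes in although they are not subunits). Of the rest, 4 belonged to complex II, 8 to complex III, 19 to complex IV and 17 to the ATP synthase. Ndufa4 and Ndufa4l2 were the exception to the names and were counted in complex IV. The rule reads names only, but it was set with earlier results of these data known. Of the 92, 1 (Cox7b2) was absent from the BLM table and was given a count of 0 there, and 1 (Cox8b) had no UMI (unique molecular identifier, 1 captured transcript) in the cells kept.

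The cells were living CD45+ leukocytes sorted from lungs of C57BL/6N mice and profiled on the BD Rhapsody system. Lungs for the BLM library were collected on day 15 of bleomycin, an epithelial injury model that goes on to fibrosis, and those for the naive library had no treatment. Each library was 1 pool of 3 mice, so there was no replicate, no p-value is given, and group, library preparation and sequencing run cannot be told apart. After filtering, 4391 BLM cells (21162868 UMIs, median 2380 per cell) and 3808 naive cells (16827673 UMIs, median 2698.5) were kept. The kept cells held 356565 UMIs of the members in BLM and 227057 in naive. There were 22 cell labels that occurred in both tables. Since labels come from a shared set of bead barcodes, no more than that was read from it. All intervals below are exact 95% intervals that cover counting error only.

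OXPHOS is the last stage of respiration in the inner mitochondrial membrane. Complexes I and II pass electrons from NADH and succinate to ubiquinone, complex III hands them to cytochrome c, complex IV reduces oxygen, and the ATP synthase uses the resulting proton gradient to make ATP. Most subunits are encoded in the nucleus and imported, whereas a small core of complexes I, III, IV and the ATP synthase is encoded by mitochondrial DNA (the mt- genes, 13 of them protein-coding). Complex II has nuclear subunits only. Among lung leukocytes, alveolar macrophages are known to depend on mitochondrial respiration, and neutrophils are known for few mitochondria and a largely glycolytic metabolism.

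The promoters of these genes are known to share sites for the factors NRF1 and GABPA, and YY1 sites have also been described in them. Of the 92 members, 74 matched a RefSeq promoter entry (GRCm38.p6) by symbol, and the 250 bases before the start were searched on both strands. The NRF1 letters GCGCANGCG occurred in 14 of the 74 windows (18.9%) and in 5.33% of the 27025 windows of all genes. The GABPA letters CCGGAAG occurred in 13 members (17.6%) and in 7.05% of all windows. The YY1 letters AAGATGGCG occurred in 0 member windows and in 0.607% of all windows. For letters this rare 74 windows are too few to read a difference, and bases after the start were not searched. Any of the 3 was present in 23 members (31.1%) and in 12.0% of all windows, so these letters were more frequent in the members' windows and were still missing from most of them. Windows were counted once however many matches they held, and a match is a description of letters, not of binding.

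Of the 7 members that stood past 1.5-fold in 4 or more of the cell classes described below, Ndufb6, Uqcr11 and Atp5k held a match. Ndufb6 and Uqcr11 are printed as examples, and Atp5k is not. Atp5l is printed because it was higher in BLM in all 9 classes and held both an NRF1 and a GABPA match. Atp5h met the same conditions and is not printed. The windows lie on the minus strand at chr4:40279422-40279671 (Ndufb6, complex I), chr10:80406831-80407071 (Uqcr11, complex III, where 9 bases inside the annotated gene were left off) and chr9:44920743-44920992 (Atp5l, ATP synthase). They are written 5′ to 3′ on the gene's strand, with the matched letters in capitals.
Ndufb6: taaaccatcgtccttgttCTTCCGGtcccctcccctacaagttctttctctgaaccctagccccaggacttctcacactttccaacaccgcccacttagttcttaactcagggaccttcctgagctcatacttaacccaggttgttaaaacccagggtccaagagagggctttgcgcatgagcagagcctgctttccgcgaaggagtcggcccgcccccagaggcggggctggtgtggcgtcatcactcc
Uqcr11: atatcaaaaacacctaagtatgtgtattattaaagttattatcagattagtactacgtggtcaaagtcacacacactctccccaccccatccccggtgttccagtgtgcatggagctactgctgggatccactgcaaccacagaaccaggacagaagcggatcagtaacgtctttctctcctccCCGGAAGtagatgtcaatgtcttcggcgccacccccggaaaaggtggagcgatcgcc
Atp5l: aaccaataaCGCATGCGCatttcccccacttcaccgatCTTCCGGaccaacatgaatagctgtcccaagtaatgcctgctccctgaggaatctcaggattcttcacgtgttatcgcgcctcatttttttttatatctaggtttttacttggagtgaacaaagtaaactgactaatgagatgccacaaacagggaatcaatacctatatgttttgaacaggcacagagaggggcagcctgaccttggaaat
In Ndufb6 the capitals are the GABPA letters on the opposite strand, and they begin 232 bases before the start. In Uqcr11 the GABPA letters begin 66 bases before the start. In Atp5l the first capitals are the NRF1 letters, 241 bases before the start, and the second are the GABPA letters, both on the opposite strand. The windows of Cox5a and Ndufa4, both described below, held none of the 3 motifs.

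To compare like cells, each cell was given the class with the most detected markers among 6 fixed genes, with at least 2 and no tie. Class names mean cells like that class. At least 50 cells in each library were found for 9 classes, namely neutrophils, B cells, T cells, NK cells, alveolar macrophages, macrophages with C1q genes (C1q macrophages), classical monocytes, nonclassical monocytes and type 2 conventional dendritic cells (cDC2). In each of them 2 to 6 of its own markers and none of another class were among its 10 leading genes. The gate selects cells by these markers, so this is not independent support for the class names. The gate left 10.3% of BLM cells and 4.57% of naive cells without a class. These cells held 18.6% of the members' UMIs in BLM and 4.0% in naive. Of all UMIs kept they held 3416673 of 21162868 in BLM and 714833 of 16827673 in naive. Their median depth was 6069.5 UMIs in BLM, against 2380 over all kept cells, and 2625.5 in naive, against 2698.5. Ties among macrophage and monocyte classes made up 180 of the 454 BLM cells and 30 of the 174 naive cells.

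The members together made up 1.68% of the BLM library's UMIs and 1.35% of the naive library's, for a log2 ratio of 0.32 (0.31 to 0.33). This total also moves with the makeup of the libraries, since the share differed several-fold between classes. Of the 9 classes, neutrophils had the lowest share in both libraries, at 0.627% (interval 0.614 to 0.640) of UMIs in BLM and 0.542% (0.525 to 0.559) in naive. Alveolar macrophages had the highest, at 2.02% (2.01 to 2.04) in BLM and 1.63% (1.62 to 1.64) in naive.

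In the naive library the classes between these ends lay close together. Classical monocytes had 1.35%, NK cells 1.30% and cDC2 1.29%, and the intervals of the last 2 overlapped. T cells and nonclassical monocytes were both at 1.24%, and B cells at 1.10% overlapped C1q macrophages at 1.08%. In the BLM library alveolar macrophages, cDC2, C1q macrophages and classical monocytes lay above every lymphoid class, and nonclassical monocytes and neutrophils did not. There cDC2 had 1.88% and C1q macrophages 1.86%, with overlapping intervals, classical monocytes 1.76% and T cells 1.48%. Next came NK cells at 1.32% and nonclassical monocytes at 1.31%, again with overlapping intervals, and B cells at 1.16%.

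The nuclear-encoded share was higher in BLM than in naive in all 9 classes, and the interval of the ratio included 0 in NK cells only. C1q macrophages differed most, with a log2 ratio of 0.78 (0.74 to 0.83), or 1.72-fold. They numbered 516 cells in BLM (median 10435.5 UMIs per cell) and 75 in naive (median 5013), so class size and depth moved with this difference. Over cells of 3000 to 12000 UMIs alone, the log2 ratio was 0.72. In single cells of this class the lower quartile of BLM cells (1.49%) lay above the upper quartile of naive cells (1.22%). The leading genes of the class were shared only in part. Folr2, Pf4 and Stab1 led in both libraries, Apoe, C3ar1 and Ccl2 in BLM only, and Ccl12, Pla2g2d and Ccl24 in naive only. The class may thus hold different kinds of macrophage in the 2 libraries, and their part in the difference was not tested.

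The next largest log2 ratios were 0.54 (0.50 to 0.59) in cDC2, 0.38 (0.35 to 0.41) in classical monocytes, 0.31 (0.30 to 0.33) in alveolar macrophages and 0.26 (0.23 to 0.28) in T cells. In alveolar macrophages the middle 50% of single cells again separated, from 1.78% to 2.22% in BLM and from 1.46% to 1.77% in naive. Smaller ratios were found in neutrophils (0.21, interval 0.16 to 0.26), nonclassical monocytes (0.087, 0.042 to 0.13) and B cells (0.067, 0.038 to 0.097), and the NK cell value was 0.019 (-0.041 to 0.078). The neutrophil value was not seen in the median cell, which had 0.508% in BLM and 0.536% in naive, and the mean over cells gave 0.013. The summed share weights cells by their UMIs, and which cells carried the difference was not tested. Classes too small for the comparison pointed the same way, with log2 ratios of 0.58 in type 1 conventional dendritic cells (cDC1, 47 and 78 cells) and 0.73 in migratory dendritic cells (68 and 13 cells).

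**Figure D1:**
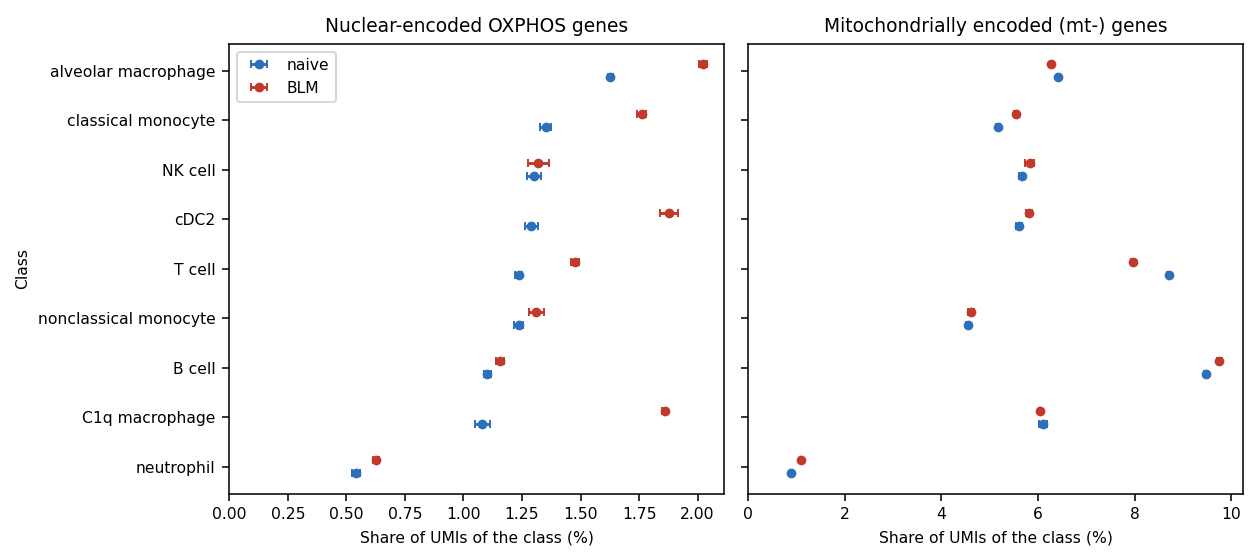
Share of UMIs (%) held by the nuclear-encoded OXPHOS genes (left) and by the 13 mt- genes (right) in 9 classes, with exact 95% intervals of counting error, BLM in red and naive in blue. On the left every BLM point lies to the right of its naive point or, for NK cells, on it, from 0.627% in neutrophils to 2.02% in alveolar macrophages; on the right the pairs lie close together.

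The boundary between alveolar and C1q macrophages is a gate on markers, and the alveolar class shrank from 648 cells in naive to 218 in BLM while the C1q class grew. With both classes pooled (734 BLM and 723 naive cells) the share was 1.91% in BLM against 1.60% in naive, and its log2 ratio was 0.26 (0.25 to 0.27). That was below the log2 ratio of either class alone, 0.31 in alveolar and 0.78 in C1q macrophages. Cells without a class had 1.94% in BLM and 1.27% in naive.

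The mt- share did not follow this pattern. In 8 of 9 classes its log2 ratio between BLM and naive lay between -0.13 (-0.14 to -0.12) in T cells and 0.10 (0.086 to 0.12) in classical monocytes, and in neutrophils it was 0.29 (0.25 to 0.34). In C1q macrophages it was -0.014 (-0.033 to 0.0048), where the nuclear-encoded share differed by 1.72-fold. The number of mt- UMIs per nuclear-encoded UMI accordingly went from 5.66 in naive to 3.25 in BLM in these cells. In alveolar macrophages it went from 3.94 to 3.10, and in T cells from 7.05 to 5.40. Across the 9 classes the nuclear and mt- shares were only loosely related (Pearson's r of 0.38 and Spearman's rho of 0.25 in BLM, 0.53 and 0.15 in naive). Without neutrophils, which were low in both, Pearson's r was -0.40 in BLM and -0.30 in naive. The 9 points share 1 library each time, so this is a description only.

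B cells showed the contrast most plainly. In naive they had the largest mt- share of the 9 classes (9.47%) and one of the smallest nuclear-encoded shares. Neutrophils were at 0.886% for the mt- genes, and alveolar macrophages, highest for the nuclear genes, were at 6.42%. Cells above 15% mt- UMIs had been left out, and without this limit the mt- log2 ratio in neutrophils was -0.89 instead of 0.29.

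By complex, the subunits of complexes III and IV and of the ATP synthase had log2 ratios with intervals above 0 in 8 of 9 classes each, complex I subunits in 5 and complex II in 4. In NK cells the interval of complex I subunits lay below 0 (-0.15, -0.28 to -0.018) and that of complex III above it (0.26, 0.079 to 0.45). In C1q macrophages complex IV stood highest at 0.89 (0.81 to 0.97) and complex III at 0.88 (0.74 to 1.03), with the ATP synthase and complex II both at 0.79 and complex I subunits at 0.62 (0.54 to 0.71). The complex I assembly factors were at 0.035 (-0.40 to 0.50) there. Their UMIs were few, at 685 in BLM and 46 in naive. In alveolar macrophages the subunits of all 5 complexes were between 0.25 and 0.36, whereas the assembly factors were at -0.25 (-0.43 to -0.073). T cells had 0.33 for complex IV and 0.32 for complex III, and -0.022 (-0.16 to 0.11) for complex II, the only complex that also belongs to the tricarboxylic acid cycle.

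The mt- genes were not uniform either. The mt- subunits of complex IV (mt-Co1 to mt-Co3) had a higher log2 ratio than those of complex I (the mt-Nd genes) in all 9 classes, with intervals above 0 for complex IV in 8 classes and below 0 for complex I in 6. In alveolar macrophages mt- complex IV was at 0.18 (0.16 to 0.19), mt- complex I at -0.28 (-0.30 to -0.27) and mt-Cytb, the mt- subunit of complex III, at -0.33 (-0.35 to -0.30). C1q macrophages gave 0.26, -0.36 and -0.22 in the same order. The near-level total of the mt- genes was thus a sum of parts that differed in sign.

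Among single mt- genes, mt-Nd2 (a complex I subunit) was at 3276 CPM (UMIs per 1000000 UMIs of its class) in BLM and 4948 CPM in naive alveolar macrophages, a log2 ratio of -0.59 (-0.63 to -0.56). In C1q macrophages its log2 ratio was -0.77 (-0.83 to -0.71), and its interval lay below 0 in 8 of 9 classes, neutrophils being the exception. The interval of mt-Co1, the catalytic subunit of complex IV, lay above 0 in all 9 classes, with a log2 ratio of 0.21 in alveolar macrophages and 0.34 in C1q macrophages. All 13 mt- messages come from long shared precursors, so their levels are not independent of one another.

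**Figure D2:**
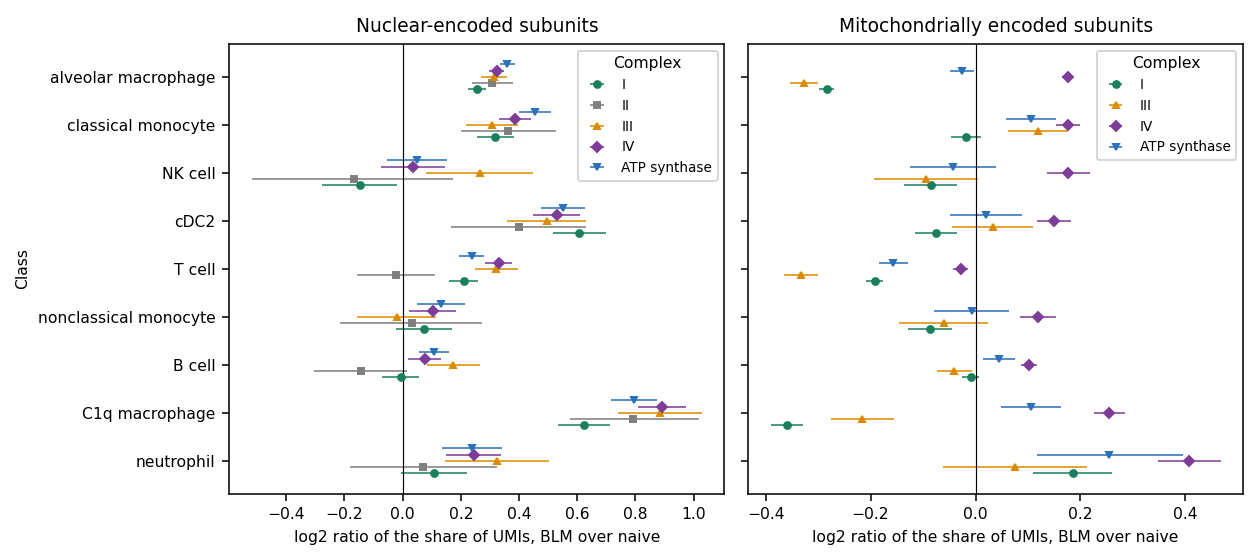
Log2 ratio (BLM over naive) of the share of UMIs by complex in 9 classes, for nuclear-encoded subunits (left) and mt- subunits (right), with exact 95% intervals of counting error. The nuclear complexes of C1q macrophages lie between 0.62 and 0.89, and on the right complex IV lies to the right of complex I in every class.

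Single members were compared where they had 100 or more UMIs over both libraries in a class, and a member was counted as past the fold when its CPM differed by 1.5-fold or more. This left out 8 members in every class, and 33 could be compared in all 9. In C1q macrophages 51 of the 80 members compared (63.8%) were higher past the fold, against 22.1% of the 6223 genes compared there, and 1 was lower, against 20.6%. The median log2 ratio was 0.73 over the members and 0.018 over all genes compared. In cDC2 22 of 56 members (39.3%) were higher, against 12.6% of genes, and 0 were lower, against 12.8%. Classical monocytes had 22 of 70 members (31.4%) higher, against 13.2%, and 0 lower, against 11.8%. Alveolar macrophages had 10 of 84 (11.9%) higher, against 6.52%, and 2 lower, against 18.9%.

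In the other classes the members' counts were at or under the background. T cells had 3 of 76 higher (3.95%, background 4.67%) and 0 lower (6.82%), although the members' median was 0.23 against -0.050 over all genes. Neutrophils had 2 of 39 higher (background 8.53%) and 0 lower (9.89%), and nonclassical monocytes 1 of 54 higher (6.55%) and 0 lower (6.03%). B cells had 0 of 72 higher (2.91%) and 1 lower (5.98%), and NK cells 0 of 37 higher (4.47%) and 1 lower (6.8%). In T cells 62 of the 76 members were above 0 (81.6%), against 43.8% of all genes compared, and 3 of the 76 passed the fold.

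The members had a median longest transcript of 1064 bases, against 2705 over all genes, and short genes as such also differed between the libraries. Other genes under 1000 bases, with members, mt- genes and ribosomal protein genes left out, had a median log2 ratio of 0.38 in C1q macrophages, 0.19 in cDC2, 0.15 in classical monocytes, 0.10 in T cells and -0.084 in alveolar macrophages. The members' medians in these classes were 0.73, 0.56, 0.37, 0.23 and 0.25. Cytosolic ribosomal protein genes, which are also abundant, had a log2 ratio of 0.16 in C1q macrophages, -0.039 in classical monocytes and -0.13 in alveolar macrophages. Theirs was 0.16 in cDC2, 0.078 in T cells, 0.16 in neutrophils and -0.17 in nonclassical monocytes. In NK cells (0.33) and B cells (0.19) it was above the members' share ratio (0.019 and 0.067), and in the other classes below it. The part of transcript length in the members' shift was not tested.

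**Figure D3:**
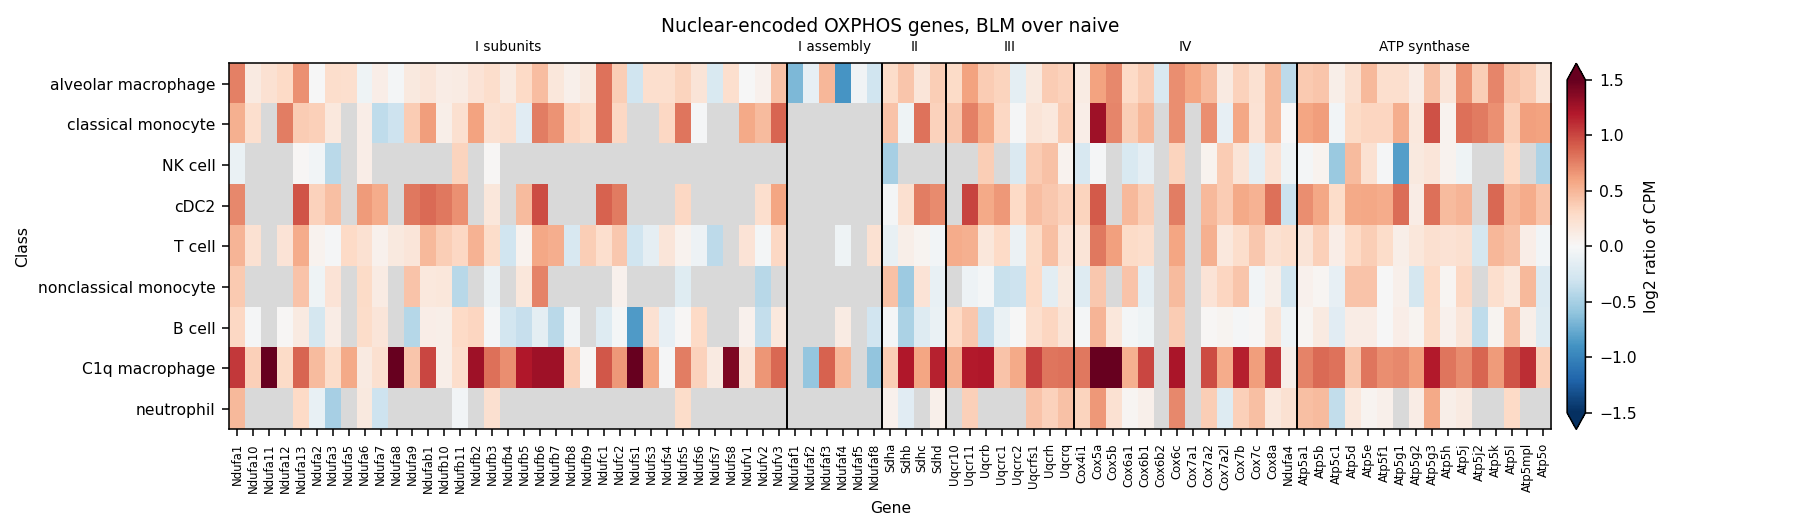
Log2 ratio of CPM (BLM over naive) by member and class for all but 1 of the members compared in any class, grouped by complex, with grey where a member had under 100 UMIs over both libraries; colours end at 1.5 in either direction. The C1q macrophage row is red for nearly all its members, and the Ndufa4 column of complex IV is pale or blue in most rows.

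By number of classes, complex IV held the members that differed most often. Cox5a and Cox6c, 2 of its nuclear-encoded subunits, were each higher past 1.5-fold in 6 of 9 classes. Members with fewer UMIs could be compared in fewer classes, such as Ndufc1 of complex I, higher past the fold in 4 of 6. Cox5a stood at 396 CPM in BLM and 106 CPM in naive C1q macrophages (2273 and 42 UMIs), a log2 ratio of 1.90 (1.46 to 2.37). In classical monocytes it was at 313 and 129 CPM (1.27, interval 0.99 to 1.57). T cells gave 0.79 (0.55 to 1.02), neutrophils 0.65 (0.15 to 1.19) and B cells 0.51 (0.24 to 0.79), so the direction was shared by lymphoid and myeloid classes. NK cells were the exception, at 139 and 142 CPM (-0.023, interval -0.64 to 0.57).

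Cox6c was at 622 CPM in BLM and 266 CPM in naive C1q macrophages (1.23, interval 0.95 to 1.52) and at 696 and 429 CPM in alveolar macrophages (0.70, 0.62 to 0.78). It was above 0 in all 9 classes, with NK cells again the one class whose interval included 0 (0.33, -0.025 to 0.68). Cox5b, the partner of Cox5a by name, and Cox7a2 were higher past 1.5-fold in 4 and 2 classes. Cox8a, the ubiquitous form of a small subunit whose muscle form Cox8b was not seen, led cDC2 together with Atp5g3, at 864 CPM in BLM and 489 CPM in naive (0.82, 0.60 to 1.04). Cox4i1, the ubiquitous form of the largest nuclear subunit of complex IV, differed far less, from 895 to 979 CPM in alveolar macrophages (0.13, 0.064 to 0.19), and was lower in nonclassical monocytes (-0.20, -0.39 to -0.0033).

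Ndufa4 went against its complex in alveolar macrophages. It was first described in complex I and is now placed in complex IV. In alveolar macrophages it was at 283 CPM in BLM and 370 CPM in naive (824 and 2453 UMIs), a log2 ratio of -0.39 (-0.50 to -0.27). In C1q macrophages it was at 210 and 198 CPM (0.090, -0.24 to 0.44), where 77 of 80 members and 51.1% of all genes compared were above 0. In classical monocytes it was at 227 and 225 CPM (0.010, -0.24 to 0.26). T cells were the one class with an interval above 0 (0.27, 0.10 to 0.43), and alveolar macrophages the one class with an interval below 0. Complex IV as a whole was at 0.33 in T cells and 0.32 in alveolar macrophages. In neutrophils Ndufa4 was at 0.23 (-0.34 to 0.83), close to the 0.24 of complex IV.

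AA467197 is the mouse counterpart of human C15orf48, whose product is known to take the place of NDUFA4 in complex IV in inflammation. It is not a member and was looked up after the Ndufa4 values had been seen. In alveolar macrophages it was at 151 CPM in BLM and 6.19 CPM in naive (438 and 41 UMIs), a log2 ratio of 4.60 (4.14 to 5.10). In classical monocytes it had 370 UMIs in BLM and 2 in naive (6.84, 4.97 to 9.89). In C1q macrophages it was at 197 and 65.9 CPM (1.58, 1.02 to 2.20), and cDC2 had the highest level of the 9 classes in both libraries, 862 and 315 CPM. Its interval lay above 0 in all 9 classes. Its span also holds the microRNA gene Mir147.

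**Figure D4:**
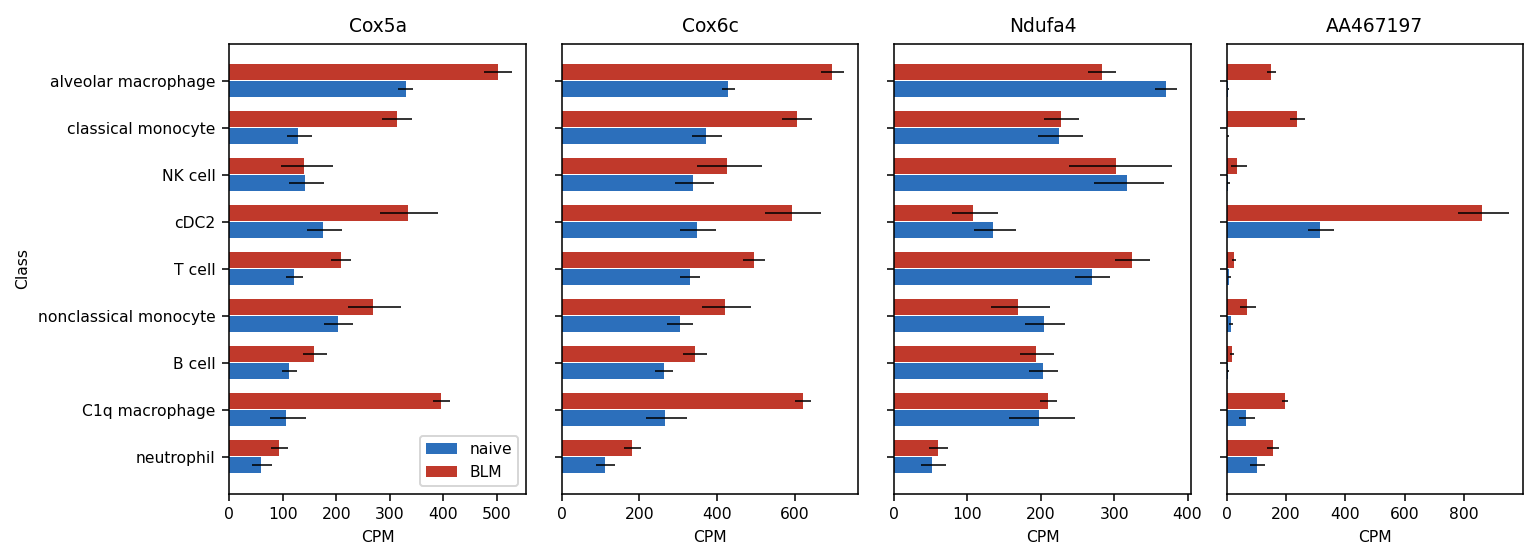
CPM of the complex IV genes Cox5a, Cox6c and Ndufa4 and of AA467197 in 9 classes, bars for BLM (red) and naive (blue) with exact 95% Poisson intervals. Cox5a and Cox6c bars are longer in BLM in all classes but NK cells for Cox5a, the Ndufa4 bar of alveolar macrophages is shorter in BLM (283 against 370 CPM), and AA467197 goes from 6.19 to 151 CPM there.

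In complex I some members were far from the rest of the complex in either direction. Ndufc1 and Ndufa1, small accessory subunits, led alveolar macrophages. Ndufc1 was at 180 CPM in BLM and 102 CPM in naive (0.82, 0.65 to 0.98), and Ndufa1 at 310 and 184 CPM (0.75, 0.63 to 0.88). Ndufs1, the large iron-sulfur subunit of the core, was at 24.9 and 45.1 CPM in B cells (-0.85, -1.47 to -0.27) from 34 and 92 UMIs. Ndufb6 was higher past 1.5-fold in 4 classes and led nonclassical monocytes (0.75, 0.21 to 1.27), where no other member passed the fold. Among the lowest members elsewhere were Ndufa3 in neutrophils (-0.50, -0.90 to -0.10) and Ndufa7 in classical monocytes (-0.38, -0.69 to -0.068). Atp5c1 in neutrophils (-0.37) and NK cells (-0.55), Ndufs7 in T cells (-0.39), Ndufaf8 (-0.59) and Ndufaf2 (-0.58) in C1q macrophages and Ndufa8 in classical monocytes (-0.31) were also among the 2 lowest of their class, and their intervals included 0.

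The assembly factor Ndufaf4 was the lowest member of alveolar macrophages, at 16.1 CPM in BLM and 29.9 CPM in naive (-0.89, -1.38 to -0.42) from 47 and 198 UMIs. Among the 9 classes it was highest in B cells, at 56.5 CPM in BLM and 51.9 CPM in naive, 3.24 and 2.64 times the median class. Ndufaf7, a methyltransferase that modifies a complex I subunit, was highest among them in nonclassical monocytes in both libraries (34.7 and 41.3 CPM, from only 15 and 45 UMIs).

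All 4 complex II subunits were detected in every class. In C1q macrophages Sdhb (iron-sulfur subunit) had a log2 ratio of 1.20 (0.63 to 1.84) and Sdhd (membrane anchor) of 1.15 (0.72 to 1.62). Sdhc, the other anchor, was at 0.60 (0.18 to 1.04) and Sdha, the flavoprotein with the active site, at 0.37 (-0.0100 to 0.79). In T cells the 4 values lay between -0.11 and 0.09 and every interval included 0. In B cells all 4 were below 0, and only the Sdhb interval excluded it (-0.48, -0.90 to -0.066).

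In complex III, Uqcrh, the hinge protein that helps cytochrome c dock, was one of the 2 leading members of NK cells, at 634 CPM in BLM and 466 CPM in naive (0.44, 0.15 to 0.73). Atp5d, the delta subunit of the ATP synthase, was the other (0.48, 0.039 to 0.91). Of the 9 classes, alveolar macrophages had the highest Uqcrb and Uqcr11 in both libraries. Uqcrb was at 456 CPM in BLM and 349 CPM in naive there, 2.21 and 2.18 times the median class, and Uqcr11 at 253 and 166 CPM, 2.44 and 2.01 times it. In BLM C1q macrophages Uqcr11 reached 237 CPM against 104 CPM in naive.

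The proton-carrying c subunit of the ATP synthase is encoded by 3 genes with the same mature protein. Atp5g3 was higher past 1.5-fold in 3 classes, at 795 CPM in BLM and 350 CPM in naive C1q macrophages (1.18, 0.94 to 1.44), 702 and 361 CPM in classical monocytes (0.96, 0.78 to 1.14) and 691 and 389 CPM in cDC2 (0.83, 0.59 to 1.07). Atp5g2 was at 463 and 416 CPM in classical monocytes (0.15, -0.025 to 0.33) and at 559 and 520 CPM in cDC2 (0.11, -0.13 to 0.34). Atp5g1 had the fewest UMIs of the 3 in C1q macrophages and was the lowest member of NK cells (-0.83, -1.58 to -0.14, from 22 and 87 UMIs). UMIs count transcript ends and are not scaled by length, so levels of different genes are set side by side only within this assay.

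Several subunits have a second form known from heart, skeletal muscle, testis or smooth muscle, and these forms were rare here. Cox4i2 had 7 UMIs in BLM and 5 in naive, and Cox7b2 had 0 and 1. Cox6a2, the striated muscle form of Cox6a1, had 24 and 57 UMIs, of which 13 and 21 lay in plasmacytoid dendritic cells, a class of 8 and 13 cells. There it was at 482 CPM in BLM and 283 CPM in naive, and in 4 of 8 and 8 of 13 cells. In B cells, at a lower depth, 0 of 602 BLM cells and 4 of 803 naive cells had a UMI, and in alveolar macrophages, at a higher depth, 1 of 218 and 8 of 648. Cox6a2 was among the 10 leading genes of the plasmacytoid cells in both libraries and was not one of their 6 markers.

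Cox6b2, the testis form of Cox6b1, was highest among the 9 classes in alveolar macrophages in both libraries, at 37.1 CPM in BLM and 43.5 CPM in naive (108 and 288 UMIs). That was 2.74 and 11.8 times the median class, and the log2 ratio between libraries was -0.23 (-0.56 to 0.10). Cox6b1 was at 717 and 549 CPM in the same cells, so the testis form remained a small addition to it. The BLM cells with stromal or endothelial markers, outside the 9 classes, had 43.7 CPM of Cox6b2 from 11 UMIs, and the naive ones had 0 UMIs. Cox7a1, the muscle form of Cox7a2, had 157 UMIs in BLM and 74 in naive. Alveolar macrophages held 43 and 65 of them and C1q macrophages 59 and 1. The classes differed in size, with 2910516 and 6626129 UMIs in alveolar and 5734945 and 394680 in C1q macrophages. By CPM Cox7a1 was higher in BLM alveolar macrophages, with a log2 ratio of 0.59 whose interval included 0. Ndufa4l2, a relative of Ndufa4 known from low oxygen and from pericytes, had 10 of its 15 BLM UMIs and 6 of its 10 naive UMIs in the few cells with stromal or endothelial markers (33 and 19 cells), which a CD45+ sort should largely exclude.

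**Figure D5:**
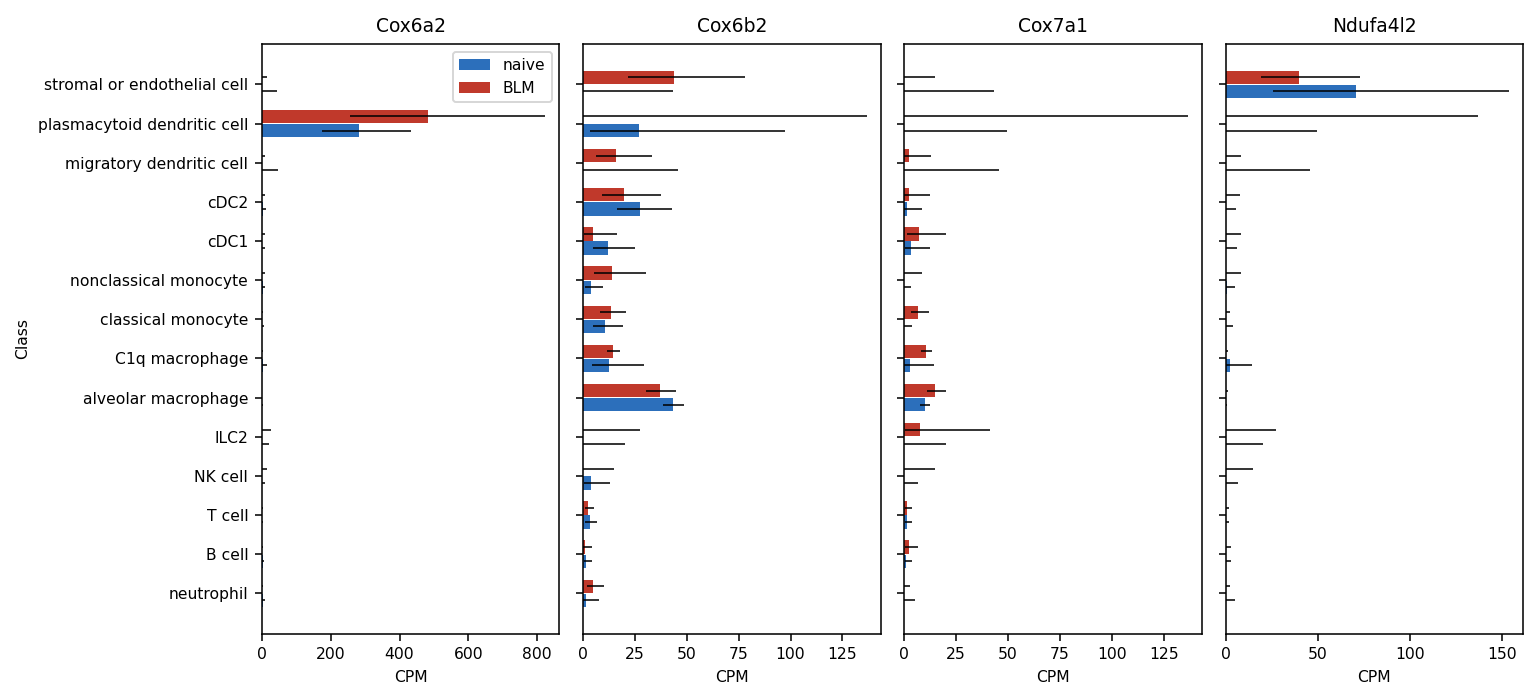
CPM of 4 tissue-restricted forms in 14 classes, bars for BLM (red) and naive (blue) with exact 95% Poisson intervals, each panel on its own scale. Cox6a2 stands out in plasmacytoid dendritic cells (482 and 283 CPM), and Ndufa4l2 in the stromal or endothelial class; Cox6b2 is at 37.1 and 43.5 CPM in alveolar macrophages and at 43.7 CPM in the BLM stromal or endothelial class, with wide intervals in classes of few cells.

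Cells with 2 or more of 6 cycling markers were also set against the other cells of their class. Cycling T cells had 2.11% nuclear-encoded UMIs in BLM against 1.37% in other T cells (47 and 744 cells), and 1.86% against 1.17% in naive (20 and 639 cells). Their mt- share went the other way, at 6.38% against 8.22% in BLM. In alveolar macrophages the cycling cells had 2.26% against 1.92% in BLM and 1.67% against 1.62% in naive, a wider gap in BLM. C1q macrophages in BLM had 2.08% against 1.81%. Cycling cells were also deeper, with a median of 5366 UMIs against 2402 in BLM T cells. With cycling cells left out, the BLM over naive log2 ratio was 0.24 instead of 0.31 in alveolar macrophages, 0.73 instead of 0.78 in C1q macrophages, 0.35 instead of 0.38 in classical monocytes and 0.12 instead of 0.067 in B cells. In the other 5 classes it stayed within its interval.

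T cells were also split by a UMI of Foxp3, or of only Cd4 or only Cd8 genes. Cells with Foxp3 had a share of 1.88% in BLM (86 cells) and 1.42% in naive (23 cells), a log2 ratio of 0.40 (0.32 to 0.48), and 16 of the 86 and 3 of the 23 were cycling. Cd4 cells gave 1.55% and 1.14% (0.45, 0.39 to 0.51) from 167 and 118 cells. Cd8 cells gave 1.34% and 1.20% (0.16, 0.12 to 0.20), and the remaining T cells 1.36% and 1.28% (0.082, 0.042 to 0.12). The intervals of the first pair of ratios did not overlap those of the last pair. Cells of these subsets come from the same 2 libraries as all others.

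Other genes of the pathway were read from lists by the same fold, and the share of all genes past the fold in the same direction is given with each count. Of the 13 glycolysis genes, 9 of 12 compared were higher past 1.5-fold in C1q macrophages (median log2 ratio 1.31), against 22.1% of all genes. In classical monocytes 6 of 11 were higher (0.63, all genes 13.2%), in cDC2 4 of 11 (0.52, 12.6%) and in alveolar macrophages 5 of 12 (0.44, 6.52%). Of 10 genes for cytochrome c, carriers and porins, 7 of 10 were higher in C1q macrophages (0.94, all genes 22.1%) and 4 of 7 in cDC2 (0.64, 12.6%). Of the 16 tricarboxylic acid cycle genes, 5 of 16 were higher (22.1% of all genes) and 0 lower (20.6%) in C1q macrophages. Their median there was 0.39, against 0.018 over all genes, and 14 of the 16 were above 0, against 51.1%. In alveolar macrophages 0 of 16 were higher (6.52%) and 0 lower (18.9%), with a median of 0.034 against -0.17 over all genes.

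Genes of fatty acid oxidation differed in sign between the macrophage classes. In alveolar macrophages 5 of 13 were lower past 1.5-fold (18.9% of all genes) and 0 were higher (6.52%), with a median of -0.39. In C1q macrophages 5 of 12 were higher (22.1% of all genes) and 0 lower (20.6%), with a median of 0.49. Regulators of mitochondrial transcription and biogenesis, among them Tfam and the NRF1 gene itself, had counts near those of all genes. Of 8 compared in C1q macrophages, 1 was higher (all genes 22.1%) and 2 lower (20.6%), with a median of -0.31. Of 11 in alveolar macrophages 1 was higher (6.52%) and 1 lower (18.9%), with a median of -0.11. The factors that assemble complexes II to V had 5 of 15 higher in C1q macrophages (0.48, all genes 22.1%) and 2 of 22 in alveolar macrophages (-0.095, 6.52%).

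Counting limits and annotation set the precision of these values. In C1q macrophages the naive side rested on 394680 UMIs, so a member with few UMIs there had a wide interval. Of the 92 members, 40 overlap another annotated gene, and since strand use in counting is not given in the sources used here, reads of the partner cannot be told apart. Cox5a, Cox6c and Ndufb6 are among them. In a share summed over a class, fewer cells that carry a transcript and less of it per cell cannot be told apart.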

How the data were processed

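Per the file headers, each library's deposited counts of UMIs were made by version 1.8 of BD's Rhapsody WTA pipeline (GRCm38, GENCODE vM19), with errors in UMIs corrected by the pipeline and no normalisation. A barcode needed 200 genes and no more than 15% mt- UMIs to pass (4526 BLM, 3925 naive). Scrublet (scanpy 1.11.5) called only 6 and 63 doublets, so the top 3% by score of each library were left out instead. Classes came from 16 lists of 6 markers. Counts were summed per class and library, with exact Clopper-Pearson, Poisson and conditional intervals (scipy 1.17.1), checked on simulated counts. Python was 3.11.15, numpy 2.4.6 and pandas 2.3.3. Positions are from GENCODE vM21 and RefSeq on GRCm38.

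Members, lists and markers were chosen with earlier results of these data known. The genes named were second forms and complex II subunits, in each class the 2 highest and 2 lowest members by the end of the interval nearer 0, and the 5 members with the largest ratio of highest to median class in both libraries. A gene named by this rule is not reported here. Others named, and AA467197, were chosen after their values were seen. Alternatives were other mt- limits, doublets kept, a stricter gate, means over cells, other denominators, folds and minimums, and, added later, cycling cells left out and a fixed range of depth.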

Additional observations from a re-analysis of the deposited data

How the results depend on the processing

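With 1 library per group, every interval covers counting error only. No paired analysis was possible because each group was 1 library. The nuclear-encoded share stayed higher in BLM under every alternative run in 8 of 9 classes. The exception was NK cells, whose interval included 0 and whose lowest value was -0.0041. In 58 of 79 values the log2 ratio lay within its interval. For the moved and reversed values below the cause was not tested.

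For the nuclear-encoded log2 ratio, neutrophils gave 0.082 with no limit on mt- UMIs, 0.33 with doublets kept and 0.013 as the mean over cells. With a limit of 10% on mt- UMIs it was 0.12 in B cells, 0.29 in T cells and 0.13 in NK cells, and NK cells gave 0.13 also with doublets kept. Means over cells gave 0.26 in classical monocytes, 0.018 in nonclassical monocytes and 0.48 in cDC2. B cells gave 0.11 without mt- and ribosomal protein UMIs. Without cycling cells, an alternative chosen after seeing the data, it was 0.12 in B cells, 0.24 in alveolar macrophages, 0.73 in C1q macrophages and 0.35 in classical monocytes. For cells of 3000 to 12000 UMIs, likewise added later, it was 0.14 in B cells, 0.30 in T cells, 0.33 in alveolar macrophages, 0.72 in C1q macrophages, 0.31 in classical monocytes and 0.21 in nonclassical monocytes.

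The mt- log2 ratio reversed in neutrophils with no limit (-0.89) and as a mean over cells (-0.14), in B cells at 10% (-0.025) and at the fixed depth (-0.048), in alveolar macrophages at the fixed depth (0.007) and in classical monocytes with no limit (-0.20). At 10% it moved to 0.20 in neutrophils, 0.071 in NK cells, -0.015 in alveolar macrophages and 0.10 in C1q macrophages. With no limit it was -0.068 in T cells, -0.056 in alveolar macrophages and -0.048 in C1q macrophages. With doublets kept it was 0.40 in neutrophils. Means over cells gave 0.062 in B cells, -0.11 in T cells, -0.048 in alveolar macrophages, -0.043 in C1q macrophages, 0.044 in classical monocytes and -0.040 in nonclassical monocytes. Without cycling cells it was -0.11 in T cells and 0.029 in cDC2. At the fixed depth it was -0.18 in T cells, 0.049 in classical monocytes and 0.12 in nonclassical monocytes.

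Members past the fold in either direction numbered 52 in C1q macrophages and stayed within 1.5 times of that under every alternative. At the lower fold tried the counts were 16 in neutrophils, 15 in B cells, 22 in T cells, 12 in NK cells, 35 in alveolar macrophages, 41 in classical monocytes, 17 in nonclassical monocytes and 48 in cDC2. With a minimum of 50 UMIs they were 7 in neutrophils, 6 in NK cells and 4 in nonclassical monocytes. Neutrophils had 1 with no mt- limit and 11 with doublets kept, NK cells 2 with doublets kept and 2 with the gate of 3 markers, and T cells 8 at a limit of 10%. At the fixed depth there were 4 in B cells, 5 in T cells, 14 in classical monocytes and 8 in nonclassical monocytes. Of 352 values for single genes, 345 stayed within their interval, and the other 7, all at the fixed depth, kept their direction.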
